A study of Mus musculus with 8 samples.

Results

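The 10 genes read here are astrocyte markers, measured in RNA from the mouse auditory nerve. They are Gfap, Vim, Aqp4, Mlc1, Slc4a4, Aldh1l1, Aldoc, Agt, Fgfr3 and Sox9. All 10 were picked by gene symbol and are among the 15035 genes of the table. All 10 also passed the filter for testing, which kept 14870 genes. The samples are nerves microdissected from cochleas at postnatal day 21, with both cochleas of a mouse pooled, so that 1 library stands for 1 mouse. The wild-type group has 4 libraries, numbered 1 to 4, and the group labelled Mef2c-heterozygote has 4, numbered 5 to 8. Mef2c encodes a MADS-box transcription factor, and the labels give neither the strain, the sex nor the kind of mutant allele. They also do not say how far toward the brainstem the nerves were cut. As a check of the tissue, Schwann cell genes summed to 210925 to 364298 normalized counts per library and spiral ganglion neuron genes to 217178 to 286320. Whether replicates differ in litter or day is not given, so p-values measure the spread between these mice.

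Astrocytes are the star-shaped glia of the central nervous system. They buffer potassium and water through end feet on blood vessels, take up glutamate, and stiffen their processes with filaments of GFAP and vimentin. The auditory nerve changes its glia along its length: Schwann cells myelinate the part within the cochlea, while oligodendrocytes and astrocytes accompany the part nearer the brainstem. Some of the markers are not private to astrocytes. Sox9 and Fgfr3 are also expressed in supporting cells of the organ of Corti, and vimentin is made by Schwann cells, fibroblasts and endothelium. GFAP is also found in non-myelinating Schwann cells.

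The libraries held 13363365 to 21507209 reads, as estimated from the step between values in each library, and values are normalized counts, that is, reads scaled with 1 size factor for each library. In the check of the targeted gene, Mef2c had 402.2 to 508.7 normalized counts in wild type. The libraries labelled heterozygote had 583.3 to 735.1, higher and not lower (log2 fold change 0.53, limma-trend adjusted p 0.186). The kind of mutant allele is not given, so the total level of the gene cannot check the label. Groups are therefore named as labelled. The RNA of the inactive X chromosome, Xist, was at 12 in wild-type library 1 and at 7.6 in library 5, labelled heterozygote. The other 6 libraries had 5175 to 8615.

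The RefSeq promoter table (GRCm38.p6) had entries for 8 of the 10 genes. Aqp4 and Sox9 were not among them. The windows of 250 bases before the annotated start are shown for 2 genes, Gfap because it is the most abundant marker and lower in the libraries labelled heterozygote, and Agt because it holds a match to 2 of the motifs searched. The Gfap window is at chr11:102897201-102897450, minus strand, inside the GENCODE M21 gene models of Gfap and Gm26668 and over no exon. The Agt window is at chr8:124569707-124569956, minus strand, and overlaps no GENCODE M21 gene. Both are written 5′ to 3′, with motif matches in capitals.
Gfap: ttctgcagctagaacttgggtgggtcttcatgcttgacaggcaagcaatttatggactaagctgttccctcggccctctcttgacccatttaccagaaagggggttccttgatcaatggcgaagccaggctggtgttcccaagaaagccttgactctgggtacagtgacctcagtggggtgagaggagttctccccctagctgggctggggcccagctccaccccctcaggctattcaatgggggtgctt
Agt: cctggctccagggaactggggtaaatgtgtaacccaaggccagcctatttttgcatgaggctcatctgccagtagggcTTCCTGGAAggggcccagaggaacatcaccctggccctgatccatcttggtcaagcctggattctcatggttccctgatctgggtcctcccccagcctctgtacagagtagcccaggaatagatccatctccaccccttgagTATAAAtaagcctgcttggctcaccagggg
In Agt the first run of capitals, TTCCTGGAA, matches the STAT motif TTCNNNGAA at 172 to 164 bases before the start. The second run, TATAAA, matches the TATA box at 30 to 25 bases before it. The Gfap window holds no match. The motifs searched on both strands, with no overlap between these matches, were CTA and TAG with 4 bases between (MEF2), TTCNNNGAA (STAT), TTGGC and GCCAA with 5 bases between (NFI), TTGGCA (short NFI), ACAATG or ACAAAG (SOX) and TATAAA. The MEF2 letters were in the windows of 0 of the 8 genes, against 3.20% of 32851 promoter windows of this length. STAT letters were in 2 of the 8 genes (Agt and Aldoc), against 7.02% of windows, and the short NFI letters were in Aldoc only, against 12.3%. The STAT letters of Aldoc lie before a start inside the gene, in a window over an Aldoc exon. SOX letters were in 0 of 8, against 25.2%, the full NFI letters in 0 of 8, against 0.0365%, and TATAAA in Agt and Vim, against 12.4%. The 8 genes have 11 windows, since some have 2 annotated starts, so a count of genes and a share of windows are unlike units. A match is a description of these letters and not a binding site.

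The comparison asks whether astrocyte transcripts differ between nerves of the 2 genotypes. Of the 10 markers, 9 had a lower mean in the libraries labelled heterozygote, led by Mlc1, Gfap and Aqp4, and Sox9 had a higher one. The median log2 fold change was -0.46, against 0.02 over all tested genes, of which 47.7% were below 0. It was -0.28 without the 2 libraries low in Xist. With limma-trend and Benjamini-Hochberg adjustment over all tested genes, 0 of the 10 passed 0.05 in either direction, against 0.0807% of all genes, 0.074% on the lower side. At an unadjusted p under 0.05, 6 of the 10 were lower and none higher, against 14.1% of all genes in either direction and 7.34% lower. With limma-voom on estimated reads, 0 also passed and 6 had an unadjusted p under 0.05. In 5 markers (Gfap, Aqp4, Fgfr3, Mlc1 and Aldoc) every library labelled heterozygote lay below every wild-type library, against 3.86% of all tested genes. The share was 3.4% for the opposite order and 7.26% for either. The authors' deposited table has an FDR under 0.05 for 3 of the 10, all lower, against 1.61% of its genes in either direction and 0.938% lower. A log2 fold change of -0.4 or below was found in 8.72% of all genes. In bulk RNA, fewer cells of a type and less RNA per cell cannot be told apart.

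**Figure D1:**
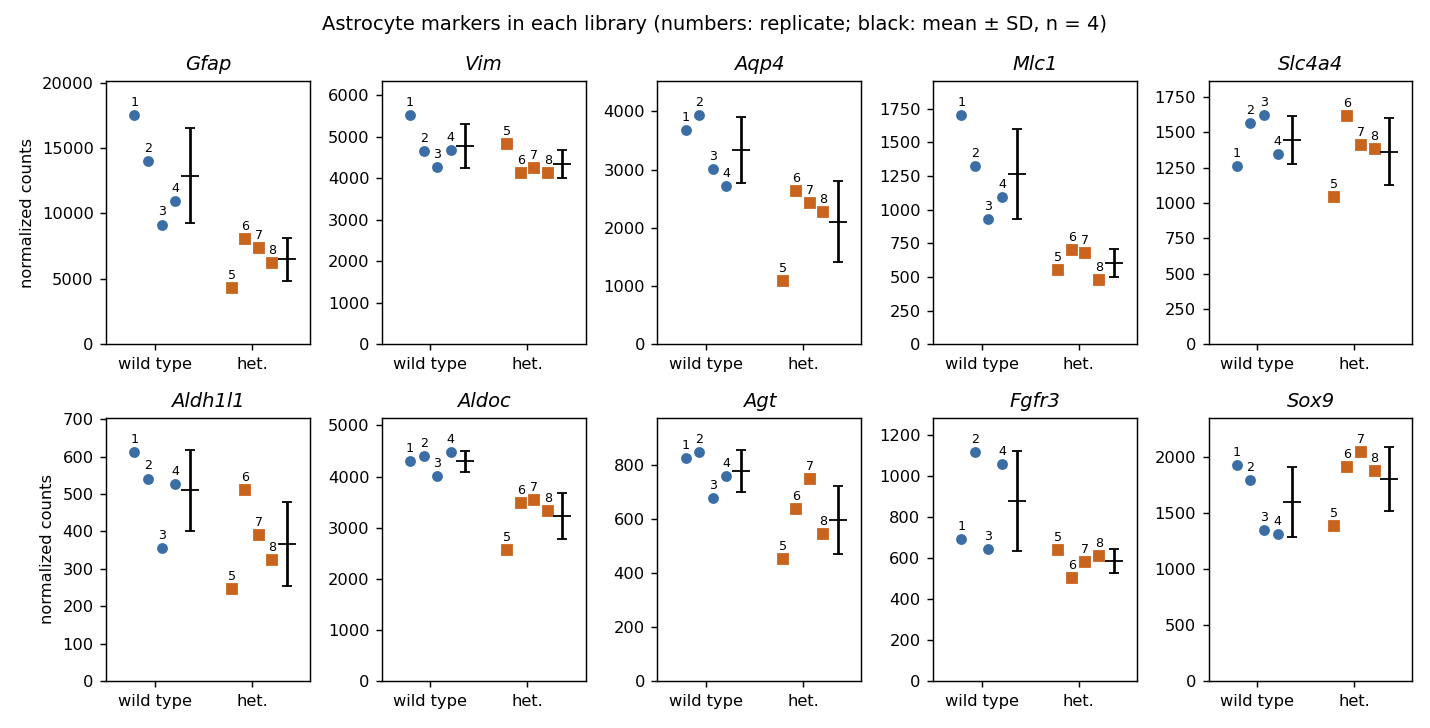
Normalized counts of the 10 astrocyte markers in each library, in 1 panel per gene with its own axis from 0. Circles are the wild-type libraries and squares those labelled heterozygote, numbered by replicate, and black bars give mean ± SD (n = 4). Gfap, Aqp4, Fgfr3, Mlc1 and Aldoc show no overlap between the groups.

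Of the 2 filament genes, Gfap was lower without overlap and the groups overlapped in Vim. Gfap, which encodes the intermediate filament protein that defines astrocytes in tissue sections, had 17496, 13981, 9152 and 10949 normalized counts in wild-type libraries 1 to 4. In libraries 5 to 8, labelled heterozygote, it had 4286, 8056, 7322 and 6242. Every one of these lay below the lowest wild-type library, library 3, and library 5 was the lowest of all. The mean was 12894 ± 3658 in wild type against 6477 ± 1640 (SD, n = 4 each), 1.99-fold lower. Its log2 fold change was -0.99 ± 0.22 (SE), at an adjusted p of 0.160 by limma-trend, which did not pass, while the FDR in the authors' deposited table was 0.000969. Gfap was at -0.64 (adjusted p 0.179 by limma-trend) without the 2 libraries low in Xist, and at -1.14 (adjusted p 0.0289) without wild-type library 3, where it passed.

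Vim, which encodes vimentin, the partner filament of immature and reactive astrocytes and of many other cells, had 5517, 4660, 4273 and 4683 normalized counts in wild type. Libraries 5 to 8, labelled heterozygote, had 4833, 4134, 4256 and 4138. The groups overlapped, with library 5, the lowest in Gfap, the highest of its group in Vim. On the log2 scale the difference was -0.14 with a 95% interval of -0.35 to 0.08 and an adjusted p of 0.534 by limma-trend, and it was -0.07 without wild-type library 1. Of the 12 other filament genes listed, 0 passed in either direction. Nes, for nestin of neural progenitors, had a log2 fold change of 0.29, Synm, for synemin, of 0.46, and Des, for the muscle filament desmin, of -0.47, with adjusted p-values of 0.320, 0.362 and 0.319 by limma-trend. Synm was at 0.20 without the 2 libraries low in Xist and at 0.21 without wild-type library 1, and Nes was at 0.14 with the length correction. The median of that list was -0.02 and changed sign in 6 of 19 alternatives.

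Of the membrane proteins of the end feet, Aqp4 and Mlc1 were lower in all 4 libraries labelled heterozygote. Mlc1 encodes a membrane protein of astrocyte junctions whose loss causes a leukodystrophy with brain swelling. It had 1700, 1326, 933.1 and 1096 normalized counts in wild type. Heterozygote-labelled libraries 5 to 8 had 549.6, 697.9, 679.5 and 480.1. The highest of these was well under the lowest wild-type library, and library 8 was the lowest here, where library 5 was the lowest in 6 of the other 9 markers. Its log2 fold change of -1.05 (SE 0.18) was the largest of the 10, with an adjusted p of 0.0632 by limma-trend. Of 19 alternatives it passed in 3. Its adjusted p by limma-trend was 0.0305 once transcript length was corrected for, 0.0139 without wild-type library 3, and 0.00481 with a principal component as covariate. In the authors' deposited table its ratio was 0.477 and its FDR 3.51e-05.

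Aqp4, the water channel that crowds the perivascular end feet, had 3679, 3932, 3010 and 2723 normalized counts in wild type. In libraries 5 to 8, labelled heterozygote, it had 1080, 2637, 2426 and 2277. The groups did not overlap, but libraries 6 and 4 were close, and library 5 stood far under the other 3 of its group. The log2 fold change was -0.73 (SE 0.24), and the adjusted p by limma-trend was 0.266. Without library 5 it was -0.43, and -0.38 without both libraries low in Xist.

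Slc4a4, the sodium bicarbonate cotransporter with which astrocytes shift acid and base, had 1263, 1564, 1621 and 1344 normalized counts in wild type. Libraries 5 to 8, labelled heterozygote, had 1043, 1615, 1411 and 1380. The groups overlapped almost fully, and only library 5 was under all wild-type libraries. Its log2 fold change was -0.10 with a 95% interval of -0.40 to 0.20 and an adjusted p of 0.758 by limma-trend, and without library 5 its sign changed, to 0.02. It was -0.04 without both libraries low in Xist and -0.30 with the length correction. Of the 14 other bicarbonate transporters and carbonic anhydrases, 0 passed, and their median was 0.23 (0.12 without the 2 libraries low in Xist). The smallest unadjusted p were those of Car12 (log2 fold change 0.49), Slc4a11 (1.46) and Car14 (0.24), with adjusted p-values of 0.278, 0.363 and 0.387 by limma-trend. Slc4a11 had 7182 normalized counts in library 6 against 554.0 to 2365 in the rest of its group, and was at 0.78 without it. Car12 was at 0.29 without the 2 libraries low in Xist.

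Among 15 end-foot and junction partners of Aqp4 and Mlc1, 0 passed in either direction. At an unadjusted p under 0.05, 4 were higher and 1 lower, against 14.1% of all tested genes in either direction and 7.34% lower. The 1 that was lower is Hepacam, for GlialCAM, the adhesion protein that brings MLC1 to astrocyte junctions. Hepacam had 1067 to 1333 normalized counts in wild type and 758.9 to 851.9 in the libraries labelled heterozygote. The groups were far apart for their spread, with a log2 fold change of -0.58, an SE of 0.10 and an adjusted p of 0.0632 by limma-trend. Lama2 and Dag1, for a laminin chain and dystroglycan of the basement membrane contact, had log2 fold changes of 0.32 and 0.35, with adjusted p-values of 0.259 and 0.278 by limma-trend. With the length correction they were at 0.07 and 0.21. Both are widely expressed, also by Schwann cells. Kcnj10, the potassium channel Kir4.1 of end feet and satellite glia, had a log2 fold change of -0.09 and an adjusted p of 0.814 with limma-trend. Without library 5 it was at 0.09, and at 0.06 without both libraries low in Xist. The median of the list was 0.10, and -0.02 after correction for transcript length.

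**Figure D2:**
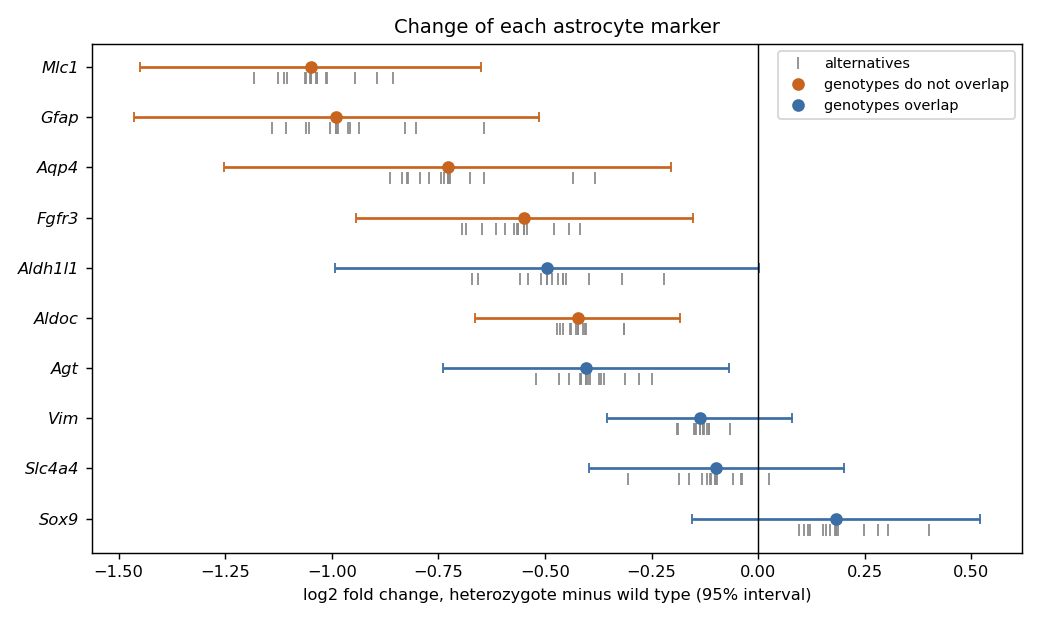
Log2 fold change of each astrocyte marker, heterozygote-labelled minus wild type, from limma-trend with its 95% interval. Grey ticks under each point are the 19 alternatives, and colour marks whether the genotypes overlap. Mlc1 and Gfap lie near -1, while Vim, Slc4a4, Sox9 and Aldh1l1 have intervals that include 0.

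Both metabolic enzymes were lower in mean. Aldoc, the brain aldolase of glycolysis, had 4296, 4409, 4006 and 4480 normalized counts in wild type. Heterozygote-labelled libraries 5 to 8 had 2559, 3484, 3540 and 3328. The SD of the wild-type libraries was 4.86% of their mean, the smallest share among the 10 markers, and the groups did not overlap. On the log2 scale the difference was -0.42 ± 0.11 (SE), at an adjusted p of 0.214 by limma-trend, and the FDR in the authors' deposited table was 0.0413. Aldoa, the aldolase of nearly all cells, had a log2 fold change of -0.03 and an adjusted p of 0.897 by limma-trend, and its sign changed after correction for transcript length.

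Aldh1l1, the 10-formyltetrahydrofolate dehydrogenase used to mark astrocytes throughout the brain, had 612.5, 541.7, 356.6 and 527.8 normalized counts in wild type. In libraries 5 to 8, labelled heterozygote, it had 245.5, 511.5, 389.2 and 322.5. The groups overlapped, since wild-type library 3 was lower than libraries 6 and 7. The log2 fold change was -0.50 with a 95% interval of -0.99 to 0.001 and an adjusted p of 0.355 by limma-trend, and it was -0.32 without library 5 and -0.22 when wild-type library 1 was left out too. Of its 4516 exonic bases, up to 499 are shared with the gene models Gm15756 or Gm45901, and whether the authors counted by strand is not given in the sources used here. Of the 11 tested aldolases and folate enzymes, 0 passed, and their median was -0.06 (-0.25 without the 2 libraries low in Xist). Amt and Gcsh, of the glycine cleavage system, had log2 fold changes of -0.45 and -0.26, and Shmt2, a serine hydroxymethyltransferase, of -0.22, with adjusted p-values of 0.297, 0.337 and 0.459 by limma-trend. Gcsh was at -0.12 with the length correction.

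Agt encodes angiotensinogen, the secreted precursor of angiotensin that astrocytes make in the brain. It had 828.0, 848.5, 679.2 and 758.5 normalized counts in wild type. Libraries 5 to 8, labelled heterozygote, had 453.0, 636.9, 749.2 and 545.7. Only library 7 reached into the wild-type range. Its log2 fold change was -0.40 (SE 0.15), and the adjusted p by limma-trend was 0.298. The difference was -0.25 without the 2 libraries low in Xist. Of 11 further renin-angiotensin genes, 6 were tested and 0 passed. The angiotensin-converting enzyme Ace had 85.2 to 134.1 normalized counts in wild type and 153.8 to 302.3 in the libraries labelled heterozygote, a log2 fold change of 0.82 with an adjusted p of 0.259 by limma-trend. The groups did not overlap in Ace, which is made by endothelium. Lnpep and Atp6ap2, an aminopeptidase and the prorenin receptor, had log2 fold changes of 0.52 and -0.09 with adjusted p-values of 0.345 and 0.633 by limma-trend. Lnpep was at 0.30 without wild-type library 1, at 0.32 without both libraries low in Xist and at 0.23 with the length correction. Ren1 and the angiotensin receptor genes were not analysed here.

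Fgfr3, a receptor tyrosine kinase for fibroblast growth factors, had 693.0, 1118, 643.5 and 1062 normalized counts in wild type. Heterozygote-labelled libraries 5 to 8 had 639.8, 504.5, 583.3 and 612.3. The groups did not overlap, although the gap between wild-type library 3 and library 5 was small, and wild type was split into 2 high and 2 low libraries. On the log2 scale the difference was -0.55 ± 0.18 (SE), at an adjusted p of 0.266 by limma-trend. Here library 5 was the highest of its group, unlike in Gfap, and without the 2 libraries low in Xist the log2 fold change was -0.69. Up to 13.9% of the exonic bases are shared with G630022F23Rik on the other strand.

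Of the related receptors, Fgfr1 had a log2 fold change of 0.20 and Fgfr2 of -0.01, with adjusted p-values of 0.396 and 0.976 by limma-trend, and that of Fgfr2 changed sign in 4 alternatives. Of 19 tested FGF receptors, ligands and feedback genes, 0 passed, and their median was 0.15 (0.24 without the 2 libraries low in Xist). Etv1, for an ETS factor induced by FGF signalling, had 486.8 to 583.5 normalized counts in wild type and 265.0 to 452.9 in the libraries labelled heterozygote. It was lower without overlap, with a log2 fold change of -0.52 and an adjusted p of 0.268 by limma-trend. Without library 5 it was at -0.34, and at -0.32 with wild-type library 1 left out as well. Fgfrl1, a receptor lacking the kinase, and Spred2, an inhibitor of the pathway, had log2 fold changes of 0.27 and 0.29 with adjusted p-values of 0.325 and 0.388 by limma-trend.

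Sox9, the transcription factor that starts glial fate and is kept by astrocytes, was the 1 marker with a higher mean in the libraries labelled heterozygote. It had 1923, 1794, 1344 and 1307 normalized counts in wild type. In libraries 5 to 8, labelled heterozygote, it had 1384, 1903, 2040 and 1872. The groups overlapped, and the low libraries were wild-type 3 and 4 and heterozygote-labelled 5. The log2 fold change was 0.18 with a 95% interval of -0.16 to 0.52 and an adjusted p of 0.592 by limma-trend, and it ran from 0.09 without wild-type library 4 to 0.40 without the 2 libraries low in Xist. Of 16 tested glial transcription factors, 0 passed, with a median of 0.10. Nfix, of the nuclear factor I family that acts in gliogenesis, had 3350 to 3831 normalized counts in wild type and 4132 to 5033 in the libraries labelled heterozygote. It was higher without overlap, with a log2 fold change of 0.38 and an adjusted p of 0.211 by limma-trend. Its relative Nfia had 0.15 and Id4, an inhibitor of differentiation, -0.24, with adjusted p-values of 0.418 and 0.326 by limma-trend, and Nfia changed sign after correction for transcript length. Sox2, of progenitors and supporting cells, had 0.05 and Sox10, of Schwann cells and oligodendrocytes, 0.17, with adjusted p-values of 0.851 and 0.484 by limma-trend.

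**Figure D3:**
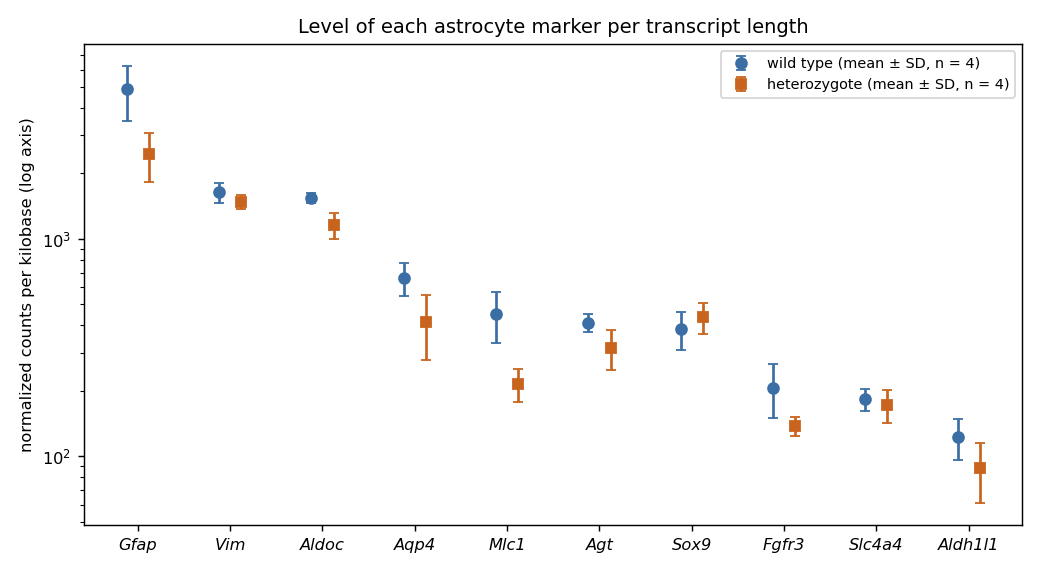
Level of each astrocyte marker as normalized counts per kilobase of its longest GENCODE M21 transcript, on a log axis. Circles are the mean of the wild-type libraries and squares that of the libraries labelled heterozygote, with SD (n = 4). Gfap is the highest in both groups, and Sox9 is the 1 marker whose square lies above its circle.

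Per kilobase of the longest transcript, levels in wild type ranged over a wide span. Gfap was at 4869 ± 1381 normalized counts per kilobase (SD, n = 4), followed by Vim at 1635 ± 179 and Aldoc at 1543 ± 74.96. The last 2 did not differ beyond their spread. Aqp4 was next at 660 ± 112, and then Mlc1, Agt and Sox9 at 451 ± 119, 412 ± 40.5 and 385 ± 75.6, which did not differ beyond their spread. Fgfr3 and Slc4a4, at 207 ± 57.8 and 183 ± 21.6, were also within it, and Aldh1l1 was the lowest at 122 ± 26.0. In the libraries labelled heterozygote Gfap was again first at 2446 ± 619, and Vim was at 1483 ± 114. Sox9 moved up to the fourth place at 435 ± 69.4, within the spread of Aqp4 at 416 ± 138, and Mlc1 was at 215 ± 37.3. These levels assume that every read came from the longest transcript.

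A further 40 astrocyte genes were read from the same fit, and 0 passed in either direction with limma-trend. In mean, 23 were lower and 17 higher. At an unadjusted p under 0.05, 11 (27.5%) were lower, against 7.34% of all tested genes. The 1 that was higher is Etnppl, with a log2 fold change of 0.63 and an adjusted p of 0.266 by limma-trend. In 6 of the 40 the libraries labelled heterozygote lay below all wild-type libraries, against 3.86% of all tested genes. The list median was -0.16, and -0.04 without the 2 libraries low in Xist. The smallest p were those of Hepacam, given above, of Bcan, for the matrix proteoglycan brevican, and of Ttyh1, for a membrane protein of glial processes. Bcan had a log2 fold change of -0.45 and Ttyh1 of -0.49, with standard errors of 0.09 and 0.11 and adjusted p-values of 0.123 and 0.163 by limma-trend. Cochlear and peripheral glia also express some of these genes. Glul, for glutamine synthetase, had -0.07, the glutamate transporter Slc1a3 0.08 and the gap junction gene Gja1 -0.29, with adjusted p-values of 0.790, 0.764 and 0.458 by limma-trend. Without the 2 libraries low in Xist, Gja1 was at -0.02 and Slc1a3 at 0.22. The sign of Slc1a3 changed without wild-type library 4. Slc1a2, the main astrocyte glutamate transporter, had 1522 to 2003 normalized counts in wild type and 689.7 to 1619 in the libraries labelled heterozygote, a log2 fold change of -0.47 with an adjusted p of 0.360 by limma-trend. Library 5 held the lowest of these values, and without it the log2 fold change was -0.20.

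Of 35 genes known to be induced in reactive astrocytes, 31 were tested and 0 passed. At an unadjusted p under 0.05, 2 were higher and 4 lower, against 14.1% of all tested genes in either direction and 7.34% lower. Their median was 0.03, which was 0.18 without the 2 libraries low in Xist. Lcn2, for lipocalin 2, which neutrophils also make, had 203.8, 17.3, 43.1 and 27.8 normalized counts in wild type and 110.8, 68.8, 360.9 and 324.4 in the libraries labelled heterozygote. Its log2 fold change was 1.90 with an adjusted p of 0.296 by limma-trend, and the groups overlapped because wild-type library 1 was high. All 5 tested neutrophil genes were also higher in mean in the libraries labelled heterozygote, with summed levels of 117.2 to 2363 in wild type and 668.3 to 6072, and their part in the level of Lcn2 was not tested. S100a10, of a calcium-binding protein, and Aspg, of an asparaginase, had log2 fold changes of -0.44 and -0.65 with adjusted p-values of 0.278 and 0.306 by limma-trend. S100a10 was at -0.16 with the length correction, and Aspg at -0.35 without the 2 libraries low in Xist.

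**Figure D4:**
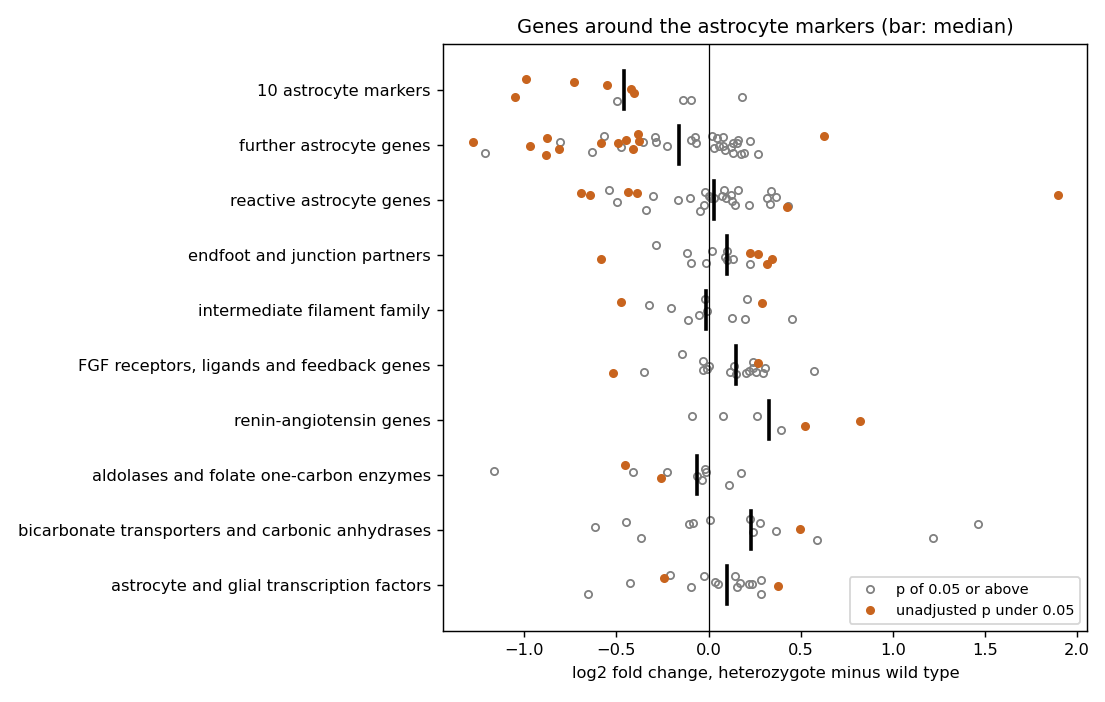
Log2 fold change, heterozygote-labelled minus wild type, of each tested gene in the astrocyte lists and in the pathways around the markers. Filled points have an unadjusted limma-trend p under 0.05, open points do not, and bars are list medians. The 10 markers have a median of -0.46 and the further astrocyte genes one of -0.16, while the other lists have medians between -0.06 and 0.33.

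Across libraries, the 10 markers had median deviations from their gene means of 0.03 to 0.35 in wild type and -0.55 to -0.09 in the libraries labelled heterozygote, on the log2 scale. Heterozygote-labelled library 5 was the lowest of its group in 7 of the 10 markers, and wild-type library 3 the lowest of its group in 7. Oligodendrocyte genes moved with the markers. Of 18 genes in that list, all tested, 16 were lower, 5 of them past an adjusted p of 0.05 with limma-trend (Mog, Mobp, Prr18, Klk6 and Anln), and the median was -1.25. Of 19 alternatives, Mog passed in 16, Prr18 in 13, Klk6 in 11, Mobp in 10 and Anln in 9, and no gene passed once library 2, 4 or 8 was left out. The median was -0.90 without the 2 libraries low in Xist. Their summed level was 37578 to 44135 normalized counts in wild type and 19022 to 27240 in the libraries labelled heterozygote. Mog, a myelin surface protein made by oligodendrocytes and not by Schwann cells, fell from 1794 ± 284 to 694.0 ± 207 (SD, n = 4 each), with an adjusted p of 0.0354 by limma-trend. The part of the oligodendrocyte differences in the astrocyte values was not tested.

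**Figure D5:**
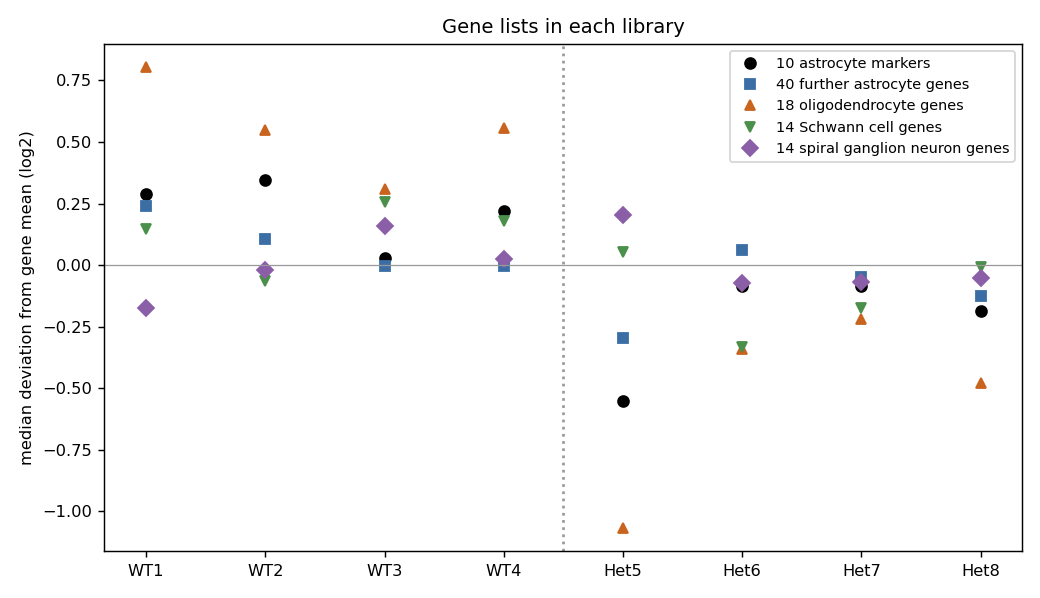
Median deviation of each gene list from its genes' means over the 8 libraries, on the log2 scale, by library. Circles are the 10 astrocyte markers and triangles pointing up the 18 oligodendrocyte genes, and squares are the 40 further astrocyte genes. Triangles pointing down are the 14 Schwann cell genes and diamonds the 14 spiral ganglion neuron genes. The markers and the oligodendrocyte genes are above 0 in all wild-type libraries and below 0 in all libraries labelled heterozygote, with library 5 the lowest.

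Within each library, log2 differences between a marker and Mog do not depend on the scaling. Gfap minus Mog was 3.09, 2.93, 2.71 and 2.53 in wild type and 3.27, 3.36, 2.99 and 3.32 in the libraries labelled heterozygote, with overlap. For Aqp4 minus Mog the values were 0.84, 1.10, 1.11 and 0.52 against 1.28, 1.75, 1.39 and 1.87, and those of Mlc1 minus Mog overlapped. Mog was thus the scarcer relative to Aqp4 in all 4 libraries labelled heterozygote. These 3 pairs were picked after the values were seen. Mog, at a log2 fold change of -1.41, was already lower than Gfap, Aqp4 and Mlc1, at -0.99, -0.73 and -1.05. A higher mean difference in the libraries labelled heterozygote therefore followed from that choice. No conclusion is drawn from the p-values that follow. The two-sided exact permutation p was 0.0571 for Gfap, 0.0286 for Aqp4, the smallest that 4 against 4 can give, and 0.114 for Mlc1. After Benjamini-Hochberg adjustment over the 3 exact permutation tests the values were 0.0857, 0.0857 and 0.114, and none passed.

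The other cell types were read by lists. Precursors of oligodendrocytes had a median log2 fold change of -0.18 over 9 genes, with Gpr17, Neu4 and Enpp6 of the maturing stage at -1.31, -1.74 and -0.56 and adjusted p-values of 0.0973, 0.222 and 0.259 by limma-trend. In the same list Cspg4, the proteoglycan NG2, was higher without overlap, at 0.36 (adjusted p 0.327 by limma-trend), and Pdgfra, the receptor that marks precursors, was at -0.06. Both were named after their values were seen. The median was 0.04 without the 2 libraries low in Xist, and its sign also changed without wild-type library 1. Microglia had a median of -0.17 over 10 genes, among them Siglech at -1.14 and P2ry12 at -0.63, while Tmem119, which bone cells also express, was at 0.61, with adjusted p-values of 0.266, 0.294 and 0.266 by limma-trend. The 14 Schwann cell genes had a median of -0.14 (-0.22 without the 2 libraries low in Xist), with Mag, shared with oligodendrocytes, 1 of 2 past the threshold (limma-trend adjusted p 0.0199). Satellite and non-myelinating glia had a median of 0.04 (0.02 without the same 2 libraries). In that list Fabp7, a fatty acid-binding protein of radial glia and astrocytes as well, had 743.4 to 1491 normalized counts in wild type and 284.6 to 573.9 in the libraries labelled heterozygote, with an adjusted p of 0.110 by limma-trend. The medians of the 6 tested genes of ependyma and choroid plexus, -0.04, and of the 7 of hindbrain and cerebellar neurons, 0.01, were at 0.07 and 0.52 without the 2 libraries low in Xist. Cochlear supporting and lateral wall cells had a median of 0.19 over 11 genes, and endothelium of 0.05 over 9. Fibroblasts and meninges, hair cells and spiral ganglion neurons had 0.05, 0.004 and 0.02, against 0.32, -0.14 and -0.13 without those 2 libraries. Osteoblasts and osteocytes had 0.49 (0.83 without them), and neutrophils 3.62.

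The genes most like the markers were sought among 13346 other genes, by Pearson correlation with the markers' median over the 8 libraries, after the mean of each genotype had been removed. The first 5 were Tra2b (0.974), Taf9 (0.974), Oat (0.971), Ntsr2 (0.970) and Ctdsp1 (0.967). Ntsr2, for a neurotensin receptor, is among the further astrocyte genes listed, with a log2 fold change of -0.89 and an adjusted p of 0.236 by limma-trend. The other 4 had log2 fold changes between -0.03 and 0.21. Against the median of the other markers, Gfap had a correlation of 0.944, Aqp4 0.868 and Sox9 0.868, while Fgfr3 had -0.158 and Vim -0.0765. With the same measure Mog had 0.921. These are descriptions over 8 libraries whose values share library and scaling. Library 5 had the largest deviation of the markers' median from its genotype, -0.37.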

How the data were processed

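Bulk RNA was sequenced from 8 auditory nerve samples, 4 per genotype, grouped by their titles. Per the labels' protocols, RNA below an integrity number of 7 was left out, and 50 ng per sample went into directional poly(A) libraries. The submitters' processing notes name STAR, Partek, DESeq2 and the build mm10. Versions, annotation and strand setting are not given in the sources used here.

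The deposited signal columns hold, as judged from their values, gene counts divided by a size factor per library. The authors' deposited table also holds a p-value and FDR, a ratio and a log2 ratio, and a signed fold change, a score not used here, per the file headers. Between 88.4% and 91.7% of values under 1000 were whole multiples of a step within 0.05, under the 95% needed, so no count model was used. Estimated depth was 13363365 to 21507209 reads, and 3 reads equal 2.37 to 3.89 normalized counts.

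Genes with at least 10 in at least 4 libraries (14870) were fitted as log2(value + 1) with limma-trend (limma 3.58.1, R 4.3.3) on all 8 libraries, without covariates, adjusted by Benjamini-Hochberg with a threshold of 0.05. Fold changes are on this scale and understate low genes. On simulated data for this comparison (14870 genes, 200 changed), 92.9% of 4-fold and 79.3% of 2-fold changes were recovered, with 5 unchanged genes called. The changed genes were drawn only from the more abundant ones, and each gene was simulated independently. Shifts shared by a whole library were left out, so these shares may overstate the recovery in the nerves. Figures and sequence searches used Python 3.11.15. Members and lists were chosen with earlier results of these data known. Named were all 10 markers, the called genes of each other list or else its 3 with the smallest p (for lists of other tissues mostly the medians only), relatives of a marker, and the 5 most alike genes. Some genes are not reported here. Alternatives were pseudocounts, filters, scalings, limma-voom, low Xist, transcript length and each library left out; a principal component covariate and the TATA motif were added after seeing the data.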

Additional observations from a re-analysis of the deposited data

Results flagged for a closer look

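In 120 groups of 4 libraries (markers and named genes), 7 had 1 library far from the other 3, and chance flags about 6. None was a group of the 10 markers. Lcn2 was high in wild-type library 1 (its gap to the nearest library was 0.862 of the group's range), Des was low in wild-type library 3 (0.898), and Etv1 was low in wild-type library 4 (0.830). Dag1 and Lnpep were high in heterozygote-labelled library 8 (0.896 and 0.833), Ace was high in library 6 (0.830), and Slc1a3 was low in library 5, at 2323 normalized counts against 2712 to 2756 in the other 3 (0.898).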

How the results depend on the processing

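No paired analysis was possible because the genotypes share no replicate number. Over 190 fits of the 10 markers (19 alternatives each), 183 kept direction and side of the threshold, 6 passed it and 1 changed sign. Of the genes tested, 12 passed with limma-trend, against 7 with quantile normalization, 30 with the correction for transcript length, 576 with the principal component covariate, and 0 to 221 with each library left out in turn (0 without wild-type 2 or 4 or heterozygote-labelled 8, and 221 without wild-type 3). At an unadjusted p under 0.05 with limma-trend, the 3 fits with 0 had 1919, 1451 and 1180 genes, against 2090 on all libraries. Markers passing numbered 1 with the length correction (Mlc1), 3 with the principal component (Mlc1, Gfap and Aldoc) and 0 to 2 with libraries left out (Mlc1 and Gfap, without wild-type 3). The principal component came from the residuals of the main fit, so it left fold changes as they were and took up residual spread. Passes gained with it are no separate support. The marker median ran from -0.56 to -0.28, the latter without both libraries low in Xist. Signs of single genes changed as follows, none past the threshold. With each library left out in turn, Slc4a4 ran from -0.19 to 0.025 and Kcnj10 from -0.24 to 0.094, both positive without library 5. Fgfr2 ran from -0.088 to 0.059, positive without wild-type 1 (0.035), wild-type 2 or library 5 (0.046). Slc1a3 ran from -0.0015 (without wild-type 4) to 0.16, Aldoa from -0.084 to 0.012 and Sox2 from -0.016 to 0.14, the last pair crossing 0 without library 8. Without both libraries low in Xist, Fgfr2 was at 0.091 and Kcnj10 at 0.059. With the length correction, Nfia was at -0.091 and Aldoa at 0.096. List medians that changed sign were those of hair cells (10 of 19 alternatives), intermediate filaments, spiral ganglion neurons and ependyma (6 each), fibroblasts (3), oligodendrocyte precursors and reactive astrocyte genes (2 each), and end-foot partners, satellite glia, hindbrain neurons and endothelium (1 each). The cause was not tested.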
